A study of Homo sapiens with 4 samples.

Results

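Fibroblasts with Pi16 and Dpt transcripts were followed in host tissue collected around human breast lesions that had grown on mouse matrix of 2 ages. Members were host cells chosen barcode by barcode from their own transcripts. At least 90% of the gene molecules of a member were mouse, it held at least 3000 gene molecules (UMIs, unique molecular identifiers, each counting 1 captured RNA), and at most 20% of its mouse UMIs were mitochondrial. S100a8 and S100a9 together made up less than 3% of mouse UMIs, Col1a1, Col1a2 and Col3a1 together at least 0.2%, and Spp1 less than 0.5%. Mki67, Top2a, Cenpf and Ube2c together had fewer than 10 UMIs. Pi16, Dpt and Clec3b together had at least 10 UMIs and more than Cpxm1, Cxcl12 and Lpl together. The rule found 533 members, 330 in the aged and 203 in the young library, of 34722 barcodes (17757 aged and 16965 young).

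Both groups were grown in Rag1-/- mice, a genotype without mature T and B lymphocytes. In the aged dECM group, MCF10DCIS.com cells, a human line that forms lesions like ductal carcinoma in situ, were seeded on decellularised mammary matrix (dECM) of mice aged 18 months or more. In the young dECM group the same line was seeded on matrix of mice aged 2 to 3 months. The seeded scaffolds were kept in culture for 12 days and then placed in mammary fat pads on opposite sides of the same host, and tumour with adjacent stroma was taken 4 weeks later. Decellularised matrix is stripped of its cells, and the mouse cells described are taken as those of the hosts, whose age is not given in the sources used here. The series' own account mentions 3 samples sent for sequencing, and how these fell into the libraries is not given in the sources used here. A group is thus 1 library, no difference between groups could be tested, and the intervals hold counting error but no variation among animals.

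Pi16 and Dpt together mark what has been called a universal fibroblast state, found in the adventitia, fascia and interstitium of many mouse organs and often described as a reservoir for more specialised fibroblasts. Pi16 encodes a cysteine-rich secretory family protein held at the cell surface, Dpt encodes dermatopontin, a matrix protein that binds decorin, and Clec3b encodes tetranectin, a plasminogen-binding lectin. Mfap5 encodes a glycoprotein of the microfibrils on which elastic fibres are built. In mouse subcutaneous fat, Dpp4-positive cells of this kind give rise to adipocytes in culture and after transfer. The word progenitor is a name taken from such work, and no differentiation was measured here.

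The levels below are UMIs of a gene summed over the cells of a population, scaled to 1000000 mouse gene UMIs of that population (CPM). The marker set held in both libraries, though Pi16, Dpt and Clec3b were part of the rule and their levels are description only. A member had a median of 36 Pi16 UMIs (0 to 277) in the aged and 38 (0 to 390) in the young library. Dpt had a median of 36.5 UMIs (0 to 156) in aged dECM members and 33 (1 to 106) in young dECM members, and Clec3b 7 (0 to 34) and 8 (0 to 30). Summed over members, Pi16 had 2628 CPM in the aged and 2667 CPM in the young library, Dpt 2119 and 1953 CPM, and Clec3b 415.5 and 486.5 CPM. Mfap5, which the rule did not use, had 3205 and 3087 CPM in members, with a median of 54 and 44 UMIs per cell and at least 1 UMI in 99.4% and 99.0% of members.

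Few members sat close to the limits of the rule. The summed Pi16, Dpt and Clec3b UMIs ranged from 11 to 341 in aged dECM members, with a median of 85, and from 10 to 407 in young dECM members, with a median of 83. Only 5 aged and 5 young members held 10 to 15 such UMIs, and 4 barcodes in each library that would otherwise have met the rule held 4 to 9. On the other limit, 17 aged and 6 young members had Pi16, Dpt and Clec3b UMIs that exceeded those of Cpxm1, Cxcl12 and Lpl by 25% or less, and 21 and 13 barcodes lay as close on the outer side. Members just inside that limit averaged 23.4 Pi16 and 41.2 Dpt UMIs per cell in the aged library, against 23.7 and 29.7 in barcodes just outside it. In the young library the same averages were 63.2 and 37.8 inside, against 35.9 and 20.15 outside.

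The members were well covered and held little RNA of the human line. Their median depth was 18692 mouse UMIs and 4220 genes in the aged library, and 17542 mouse UMIs and 4130 genes in the young library. All members of a library added up to 6415967 and 3693477 mouse UMIs. Median human UMIs per member were 121 and 126, with 2.38% and 2.48% mitochondrial UMIs, and 0.0355% and 0.0389% S100a8 and S100a9 UMIs. The libraries shared 190 barcodes, of which 1 was a member in the aged and another a member in the young library, and none was a member in both. Scrublet, a doublet caller, gave a score of at least 0.25 to 9 aged (2.73%) and 10 young (4.93%) members.

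Of the fibroblasts found by their collagen transcripts, about the same share were members on both matrices. Members were 33.1% (95% exact interval 30.2 to 36.15) of 996 collagen-gated host barcodes in the aged library and 35.8% (31.85 to 39.9) of 567 in the young library, and these intervals overlap. Cpxm1-side fibroblasts, which had at least 10 UMIs of Cpxm1, Cxcl12 and Lpl together and no fewer of them than of Pi16, Dpt and Clec3b, were 29.1% (26.3 to 32.05) in the aged and 19.05% (15.9 to 22.5) in the young library. Spp1-high fibroblasts, with at least 0.5% Spp1 UMIs, were 25.9% (23.2 to 28.7) in the aged and 31.75% (27.9 to 35.75) in the young library. With Spp1-high and cycling cells left out of the denominator, members were 46.8% (43.1 to 50.6) and 56.1% (50.8 to 61.3). These intervals do not overlap, so the likeness of the shares depends on the denominator.

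Of all host barcodes that passed the same depth and mitochondrial limits, more were members in the aged library. They were 6.06% (5.44 to 6.73) of 5445 host barcodes there and 3.96% (3.44 to 4.53) of 5131 in the young library. Collagen-gated barcodes as a whole were 18.3% (17.3 to 19.3) of host barcodes in the aged and 11.05% (10.2 to 11.9) in the young library, so both shares moved in the same direction. How much stroma was taken with the tumour and how well it came apart were not measured, and their part in these shares was not tested.

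**Figure D1:**
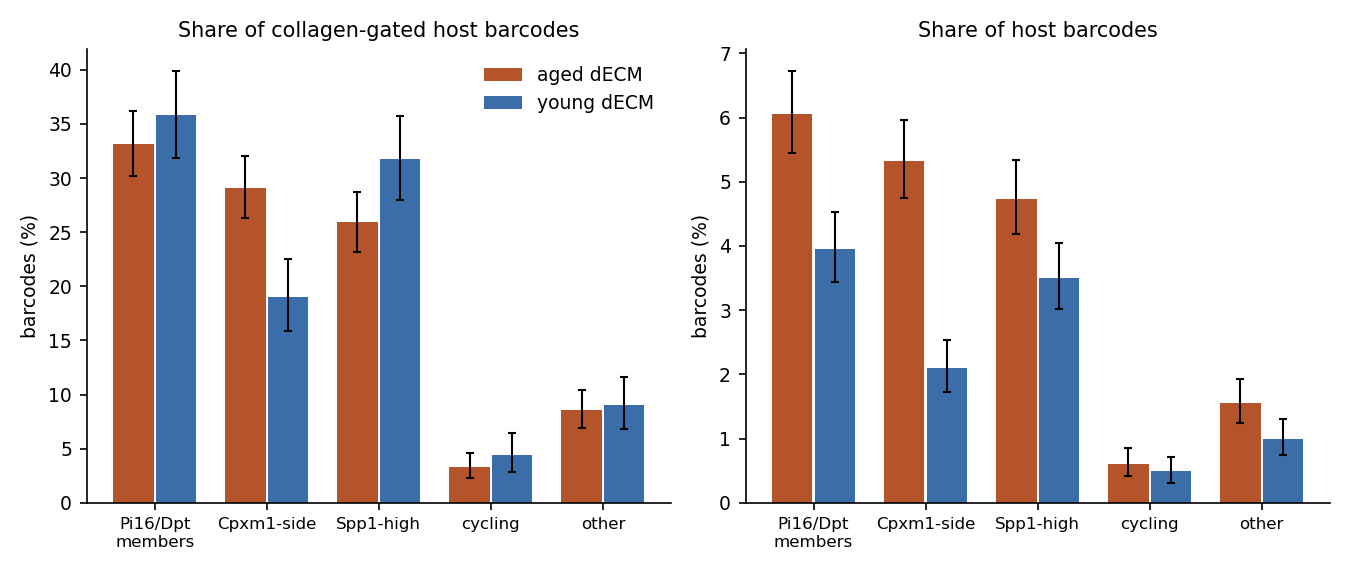
Bars give the percent of collagen-gated host barcodes (left) and of all host barcodes (right) in each fibroblast population, for the aged and the young dECM library, with 95% exact binomial intervals for counting error. Members took 33.1% of collagen-gated barcodes on aged and 35.8% on young dECM, and the bars of Cpxm1-side fibroblasts stand further apart, at 29.1% and 19.05%.

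Set against the Cpxm1-side fibroblasts of the same library, members carried a broad set of surface and secreted genes of the universal state. Of 2959 genes counted, leaving out the genes of the rule, 126 (4.26%) were at least 2-fold higher in members in both libraries and 103 (3.48%) at least 2-fold lower, 7.74% in all. The median log2 ratio over all counted genes was -0.01 in the aged and -0.04 in the young library. The cells were sorted into these populations by their own transcripts, so these differences are a description of what was sorted, and no test applies. Of the 22 counted genes of a universal and progenitor fibroblast list, 20 were higher in members and 0 lower. The list's median log2 ratio was 1.55 in the aged and 1.78 in the young library. Many of these genes are named for this state because they mark it, so the count describes the sorting and is not a finding about it.

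The surface genes of the list were among the most abundant. Ly6a, which encodes the stem cell antigen Sca-1, had 3305 CPM in aged and 3533 CPM in young dECM members, against 1431 and 1453 CPM in Cpxm1-side fibroblasts. Ly6c1, a relative of Ly6a known from endothelium and fibroblasts, had 1719 and 1872 CPM in members and 615 and 547 CPM in Cpxm1-side fibroblasts. Cd34, a sialomucin of vascular and stromal progenitors, had 718 and 645 CPM against 221 and 195 CPM. These 3 genes were higher in members of both libraries, by ratios of similar size.

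Dpp4 and Sema3c separated the populations more sharply. Dpp4, the dipeptidyl peptidase also known as CD26, had 309 CPM in aged and 316 CPM in young dECM members, against 41.85 and 36.0 CPM in Cpxm1-side fibroblasts and 2.28 and 1.61 CPM in Spp1-high fibroblasts. Its log2 ratio of members over Cpxm1-side fibroblasts was 2.88 (2.69 to 3.08) in the aged and 3.13 (2.81 to 3.48) in the young library. Sema3c, a secreted axon guidance factor, had 569 and 546 CPM in members and 46.1 and 41.85 CPM in Cpxm1-side fibroblasts. Cd55, which protects cells from complement, had 540 and 551 CPM against 88.3 and 71.1 CPM. Anxa3, a calcium-dependent phospholipid-binding protein gene, had 583 and 638 CPM against 93.0 and 82.8 CPM. With each cell thinned to 3000 UMIs, Dpp4 had a UMI in 56.7% (51.1 to 62.1) of aged and 55.7% (48.5 to 62.6) of young dECM members, and Sema3c in 65.8% and 64.5%. In neutrophil-gated barcodes, which should lack these genes, the thinned shares were 0.721% and 0.319% for Dpp4 and 0.681% and 0.532% for Sema3c, at a median depth of 4096 and 4148 mouse UMIs; 128 and 137 shallower ones were left out. Before thinning Dpp4 had a UMI in 87.0% and 85.7% of members and in 1.11% and 0.779% of neutrophil-gated barcodes. Scrublet gave a score of at least 0.25 to 24.74% of neutrophil-gated barcodes in the aged and 22.65% in the young library. The part of doublets in the levels of these barcodes was not tested.

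Mfap5 and Efemp1 were the genes of the list not 2-fold apart in both libraries. Efemp1, a fibulin gene, had 797.5 and 875.6 CPM in members, against 471 and 351 CPM in Cpxm1-side fibroblasts, which was past 2-fold in the young library alone. Mfap5 had 3205 CPM in aged and 3087 CPM in young dECM members, against 1653 and 1744 CPM in Cpxm1-side fibroblasts, a log2 ratio of members over them of 0.96 and 0.82. It was lower in Spp1-high fibroblasts, at 529 and 401 CPM.

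**Figure D2:**
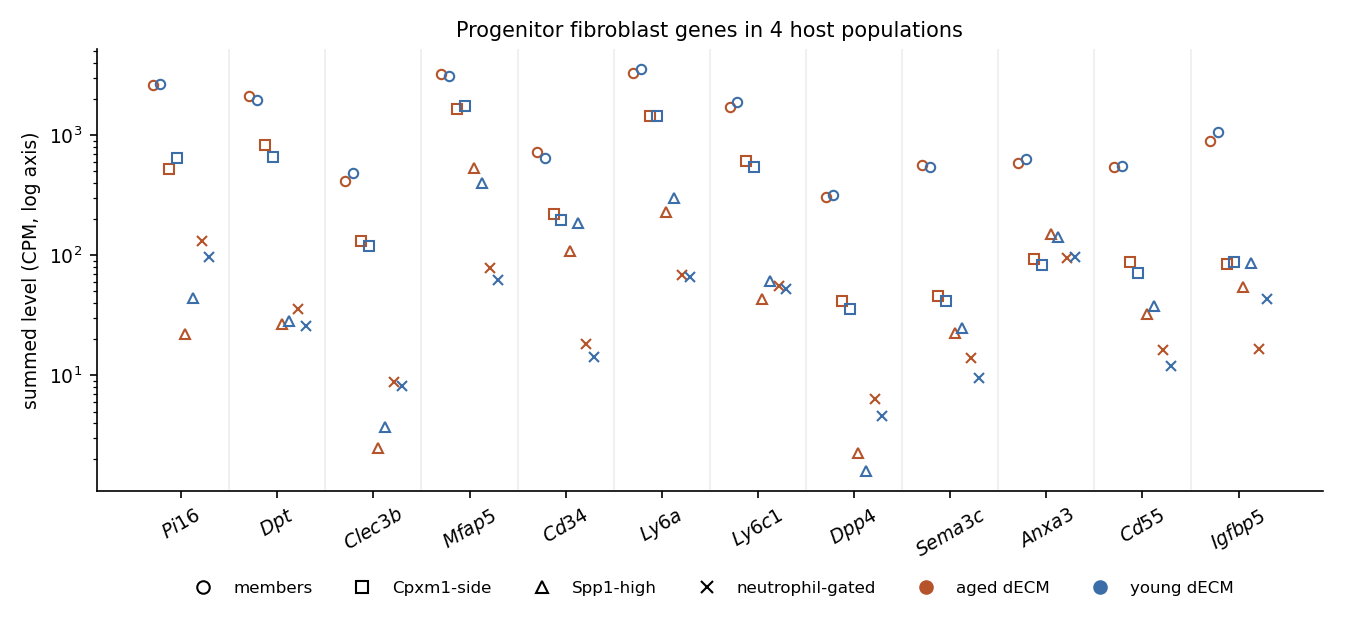
Summed levels in CPM (log axis) of 12 progenitor fibroblast genes in members, Cpxm1-side fibroblasts, Spp1-high fibroblasts and neutrophil-gated barcodes, 1 point per library. All 12 are highest in members of both libraries, but Pi16, Dpt and Clec3b chose the members, so their place is description only. Within members the points of the aged and the young library lie close together, as for Dpp4 at 309 and 316 CPM.

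The largest ratios belonged to genes that were low in Cpxm1-side fibroblasts. Dmkn, which encodes dermokine, a secreted protein known from epidermis, had 130.1 CPM in aged and 173 CPM in young dECM members, against 1.86 and 0.45 CPM in Cpxm1-side fibroblasts. Only 11 Dmkn UMIs were counted in the Cpxm1-side fibroblasts of the aged library and 1 in those of the young library, so the log2 ratios of 6.13 (5.28 to 7.13) and 8.59 (6.10 to 13.9) are loosely bounded above. Sbsn, which encodes suprabasin, another protein best known from epidermis, had 402 and 382 CPM against 31.2 and 23.4 CPM. Efhd1, a mitochondrial calcium-binding protein gene, had 65.9 and 66.1 CPM against 1.69 and 0.45 CPM, the last of these from 1 UMI. Dmkn had a UMI in 16.4% of aged and 27.6% of young dECM members after thinning to 3000 UMIs, against 1.60% and 1.49% of neutrophil-gated barcodes, where its level was 10.55 and 12.7 CPM. Before thinning the shares were 35.15% and 42.4% of members and 2.29% and 2.40% of neutrophil-gated barcodes.

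Aldh1a3, Akr1c18 and Pcsk6 encode enzymes. Aldh1a3, which makes retinoic acid from retinaldehyde, had 120.5 CPM in aged and 120.2 CPM in young dECM members, against 8.13 and 2.70 CPM in Cpxm1-side fibroblasts. Akr1c18, which inactivates progesterone in the mouse, had 102 and 106 CPM against 6.10 and 3.60 CPM. Pcsk6, a proprotein convertase that processes growth factors of the TGF-beta family, had 102 and 120.2 CPM against 8.98 and 8.10 CPM. Crabp1, which encodes a cellular retinoic acid-binding protein, ran the other way, at 12.9 and 14.35 CPM in members against 184 and 147 CPM in Cpxm1-side fibroblasts.

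Signalling genes divided between the populations. Of 17 counted genes of a Wnt, BMP and TGF-beta list, 3 were higher in members and 7 lower. Wnt2, a canonical Wnt ligand, had 129 CPM in aged and 122 CPM in young dECM members, against 14.4 and 20.25 CPM in Cpxm1-side fibroblasts. Sfrp4, a secreted Wnt antagonist, had 624 and 673 CPM against 301 and 252 CPM, and Tgfbr2, the type II TGF-beta receptor, 936 and 982.5 CPM against 447 and 368 CPM. Wnt5a, a non-canonical Wnt ligand, had 9.04 and 8.935 CPM in members and 61.3 and 95.8 CPM in Cpxm1-side fibroblasts. Grem1, a BMP antagonist, had 7.64 and 16.8 CPM against 99.1 and 213 CPM, and Inhba, the activin A subunit, 17.9 and 15.7 CPM against 188 and 196 CPM. Sfrp1, Dkk3 and Tgfb1 were also among the lower genes. Outside that list, Bmp3, a BMP family member that opposes osteogenic BMPs, had 54.9 and 54.7 CPM in members and 1.35 CPM in Cpxm1-side fibroblasts of each library, from 8 and 3 UMIs. Tmem100, a transmembrane protein gene downstream of BMP9 and ALK1 in endothelium, had 120.5 and 133.5 CPM against 11.5 and 11.7 CPM, and Arhgap20, a GTPase-activating protein gene, 68.7 and 75.5 CPM against 9.32 and 9.90 CPM.

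Insulin-like growth factor binding proteins were split in the same way. Igfbp5 had 890.1 CPM in aged and 1061 CPM in young dECM members, against 84.7 and 87.75 CPM in Cpxm1-side fibroblasts, and Igfbp6, which prefers IGF2, had 1258 and 1087 CPM against 407 and 392 CPM. Igfbp7 leaned towards the Cpxm1 side, at 1237 and 1137 CPM in members and 2423 and 2696 CPM in Cpxm1-side fibroblasts, short of 2-fold in the aged library. Of 16 counted growth factor and receptor genes, Igfbp5 and Igfbp6 were higher in members, and Pdgfrb and the EGFR ligand gene Ereg were lower.

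Contractile genes were low in members. Of 17 counted genes of a myofibroblast list, 0 were higher and 10 lower than in Cpxm1-side fibroblasts, with a median log2 ratio of -1.29 in the aged and -1.52 in the young library. Acta2, smooth muscle actin, had 89.0 CPM in aged and 182 CPM in young dECM members, against 668 and 1574 CPM in Cpxm1-side fibroblasts. Tagln, an actin-binding protein of smooth muscle, had 62.03 and 141 CPM against 738 and 1857 CPM, and Tnc, tenascin C, 50.3 and 102 CPM against 415 and 878 CPM. Myl9, Tpm1, Tpm2, Lrrc15, Pdgfrb, Inhba and Actn1 were the other lower genes. Cthrc1 and Fn1, matrix genes of the list, leaned the other way without being 2-fold apart in both libraries. Cthrc1 had 734 and 498 CPM in members and 286 and 256 CPM in Cpxm1-side fibroblasts, and Fn1, fibronectin, 5808 and 6246 CPM against 2940 and 3102 CPM. After thinning, Acta2 had a UMI in 6.36% (3.98 to 9.56) of aged and 9.36% (5.73 to 14.2) of young dECM members, against 9.74% and 8.95% of neutrophil-gated barcodes. Before thinning the shares were 19.1% and 20.7% of members and 13.65% and 13.7% of neutrophil-gated barcodes. Thinning removes more from members, with a median depth of 18692 and 17542 mouse UMIs, than from neutrophil-gated barcodes, with 4096 and 4148. Summed Acta2 in those barcodes was 48.9 and 71.3 CPM, and whether members stood above background was not tested.

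Of 18 counted elastic fibre and microfibril genes, 5 were higher in members and 2 lower. Fbn1, fibrillin 1, had 2488 CPM in aged and 2514 CPM in young dECM members, against 897 and 1043 CPM in Cpxm1-side fibroblasts, and Eln, elastin, had 555 and 506 CPM against 263 and 176 CPM. Ltbp4 and Ltbp1, which hold latent TGF-beta in microfibrils, and Emilin2 were the other higher genes. Ltbp2 had 18.55 and 29.0 CPM in members and 150.4 and 125.5 CPM in Cpxm1-side fibroblasts, and Emilin1 was also lower.

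Of 15 counted collagen genes, 1 was higher in members and 6 lower. Col14a1, a fibril-associated collagen, had 1790 CPM in aged and 1712 CPM in young dECM members, against 617 and 543 CPM in Cpxm1-side fibroblasts. The basement membrane collagen genes Col4a1 and Col4a2 were lower, with Col4a1 at 310 and 276 CPM in members and 796 and 809 CPM in Cpxm1-side fibroblasts. Col12a1, Col11a1, Col18a1 and Col15a1 were lower too, Col15a1 at 44.6 and 30.05 CPM against 218 and 179 CPM. Col7a1, the anchoring fibril collagen outside that list, gave the lowest ratio of all named genes, at 1.71 and 1.35 CPM in members and 57.3 and 110.2 CPM in Cpxm1-side fibroblasts. The fibrillar genes Col1a1, Col1a2 and Col3a1 were used to gate all of these cells and were not counted, at 9447, 11949 and 21964 CPM in aged and 7387, 9297 and 18949 CPM in young dECM members.

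Among small proteoglycan and matricellular genes, 3 of 23 were higher in members and 3 lower. Tnxb, tenascin X, had 947 CPM in aged and 1008 CPM in young dECM members, against 326 and 266 CPM in Cpxm1-side fibroblasts, and Ogn and the hyaluronan synthase gene Has1 were also higher. Fmod, Sparcl1 and Thbs1 were lower. Of 18 collagen processing genes only Pcolce2, an enhancer of procollagen cleavage, was 2-fold apart, at 415 and 420 CPM in members against 146 and 107.5 CPM. Of 26 protease and inhibitor genes, the serine protease gene Htra3 was higher, at 1001 and 973 CPM against 261 and 193.5 CPM. Mmp3, Mmp13, Adam12 and Mmp9 were lower, the last at 8.105 and 5.96 CPM against 53.4 and 151 CPM.

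Inflammatory ligands were shared in part. Of 19 counted chemokine and cytokine genes, 1 was higher in members and 5 lower, and the monocyte chemokine genes Ccl2 and Ccl7 were within 2-fold. Ccl2 had 1721 CPM in aged and 1506 CPM in young dECM members, against 1509 and 1066 CPM in Cpxm1-side fibroblasts. Ptx3, a secreted pattern recognition pentraxin, had 1382 and 1251 CPM in members and 658 and 383 CPM in Cpxm1-side fibroblasts. Cxcl5, a neutrophil chemokine, had 105 and 113 CPM against 675 and 805 CPM, and Cxcl14 had 483 and 551.5 CPM against 2004 and 3886 CPM. Cxcl16, the interleukin-1 receptor gene Il1r1 and the acute phase gene Saa3 were also lower. Reg1, a secreted lectin known from pancreas, was lower as well, at 15.7 and 12.45 CPM in members, against 112 and 192 CPM in Cpxm1-side fibroblasts.

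Of the other lists, several had 1 gene apart or none and some had more, beside 7.74% of all counted genes. Of 12 complement genes only Cd55 was 2-fold apart, and C3 had 1631 CPM in aged and 1525 CPM in young dECM members, against 1761 and 1166 CPM in Cpxm1-side fibroblasts. None of 22 oxidative phosphorylation genes, 1 of 14 interferon response genes (Ifi27l2a, higher), 1 of 24 immediate early genes (Atf3, higher) and 1 of 19 hypoxia and glycolysis genes (Ddit4, lower) were 2-fold apart. Of 18 counted transcription factor genes, Osr1, Osr2, Creb5, Ebf2 and Zeb1 were higher in members and Snai1 lower. Creb5, a CREB family factor, had 263 and 261 CPM in members against 58.1 and 35.55 CPM, and Osr1, an odd-skipped factor of connective tissue progenitors, 173 and 196 CPM against 63.4 and 64.35 CPM. Of 11 genes of a list for Col15a1-positive and adipogenic fibroblasts, 0 were higher and 4 lower (Col15a1, Fabp4, Apoe and Sparcl1). In a lipid handling list, the prostacyclin synthase gene Ptgis was higher and 4 of 12 genes were lower, among them Apoe, Fabp4 and Crabp1. The antioxidant gene Sod2 was the only one apart of 17 in its list, and Mmp3 the only one of 12 in a senescence list; both were lower in members. The cell cycle inhibitor gene Cdkn2a, a common marker of senescence, was at 0.468 and 0.812 CPM in members and 12.5 and 18.9 CPM in Cpxm1-side fibroblasts. These levels were all below the minimum of 50 CPM, so Cdkn2a was not counted.

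**Figure D3:**
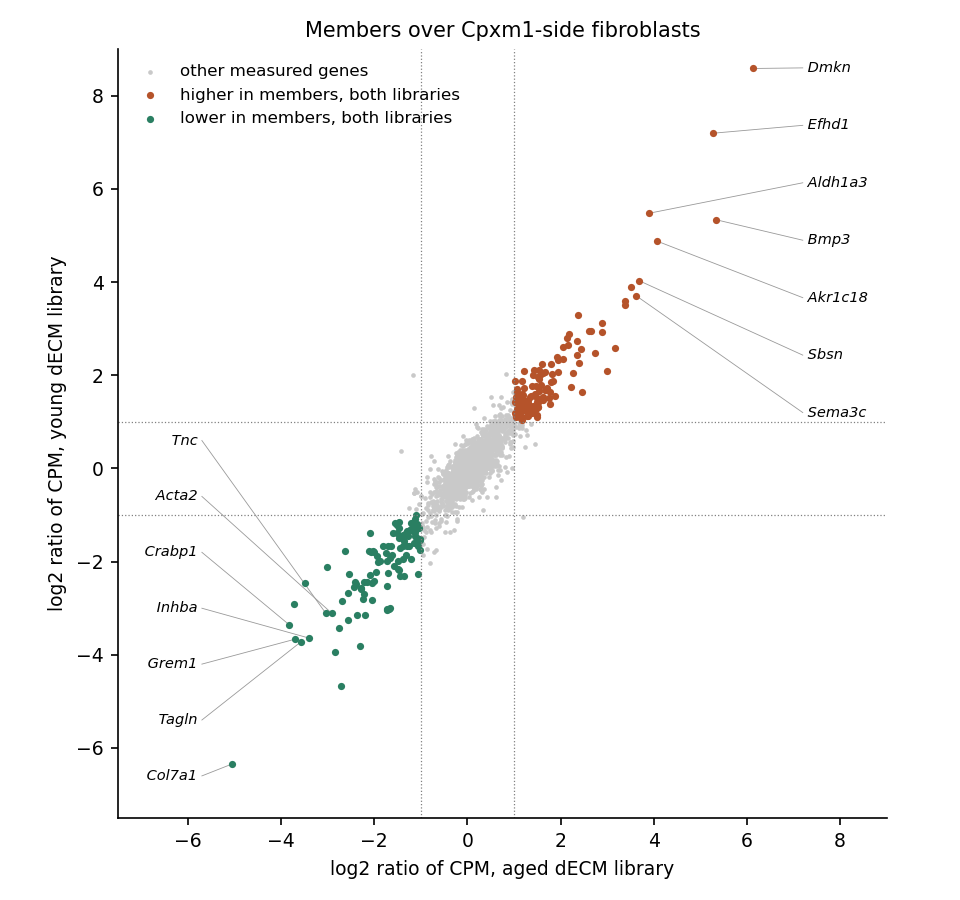
Each point is 1 gene, placed by the log2 ratio of its CPM in members over Cpxm1-side fibroblasts in the aged (x axis) and the young (y axis) library, with dotted lines at 2-fold. The 126 higher and 103 lower genes lie near the diagonal, with Dmkn at 6.13 and 8.59 at one end and Col7a1 at -5.06 and -6.35 at the other.

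Members were not uniform. Nearly all had Pi16, with only 4 aged and 2 young members lacking a UMI, so a contrast of Pi16-positive with Pi16-negative members rests on 6 cells. In that contrast 485 of 3005 genes (16.1%) were 1.5-fold apart in both libraries, 271 higher (9.02%) and 214 lower (7.12%), and no gene is named from it. Members were therefore also divided by the share of Pi16 among their mouse UMIs, above or at and below the median of their library, a split chosen after the data were seen. The medians were 2079 CPM in the aged and 2170 CPM in the young library, and 165 aged members lay above and 165 at or below it, and 101 and 102 young members. Their median depths were 18100 and 19359 mouse UMIs in the aged library and 17542 and 17529 in the young library.

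Over this split 42 of 2883 genes (1.46%) were at least 1.5-fold higher in members with more Pi16 in both libraries, and 41 (1.42%) were lower. Aldh1a3 had 182 CPM in aged dECM members above the median and 63.6 CPM in those at or below it, and 190.2 and 56.05 CPM in young dECM members. Igfbp5 had 1344 and 471 CPM in the aged and 1580 and 585 CPM in the young library. Efhd1 had 93.75 and 40.2 CPM, and 108 and 27.5 CPM. These genes were also higher in members than in Cpxm1-side fibroblasts. Pi16 was part of the rule behind that contrast and sets this split, so the overlap is description only. Of the 24 universal list genes measured here 5 were higher, Sema3c, Cd55, Igfbp5, Pcolce2 and Aldh1a3, and 0 lower. The list holds Dpt and Clec3b, also genes of the rule, and this count too describes the sorting.

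Complement genes and Thbd were also on the high-Pi16 side. Thbd, which encodes thrombomodulin, had 158 CPM above and 68.4 CPM at or below the median in the aged library, and 171 and 61.8 CPM in the young library. C3, the central complement component, had 2206 and 1100 CPM, and 2075 and 1020 CPM. Serping1 and Timp3, an inhibitor of complement C1 and an inhibitor of metalloproteinases, were also higher, with 3 of 11 complement genes higher and 0 lower. Sema3d, the immune receptor ligand gene Cd200 and the muscle gene Mustn1 completed the 8 highest named genes.

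The low-Pi16 side held some genes known from other states. Of 15 measured genes of the myofibroblast list, 3 were lower with more Pi16 and 0 higher. Acta2 and Tagln were not 1.5-fold apart in both libraries. Lrrc15, a marker of tumour myofibroblasts, had 40.2 CPM above and 114 CPM at or below the median in the aged library, and 48.7 and 131 CPM in the young library. Hmcn1, the matrix protein hemicentin, had 17.8 and 66.0 CPM, and 28.3 and 86.2 CPM. Ndufa4l2, a hypoxia-inducible mitochondrial gene that is also a pericyte marker, had 33.1 and 112 CPM, and 50.9 and 161 CPM. It was the only gene of 10 in the pericyte list that was measured over this split. Cav1, caveolin 1, and S100a4 were lower as well, S100a4 at 154 and 376 CPM, and 183 and 647 CPM.

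Lyz2 and Apoe, both abundant in macrophages, were also lower with more Pi16. Lyz2 had 54.5 CPM above and 218 CPM at or below the median in the aged library and 28.9 and 184 CPM in the young library, where 61.7% of its UMIs came from 1 cell. Apoe had 37.8% and Cxcl5 26.2% of their young UMIs in 1 cell. Of the 41 lower genes, 7 had over 20% of their UMIs in 1 cell of a library.

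**Figure D4:**
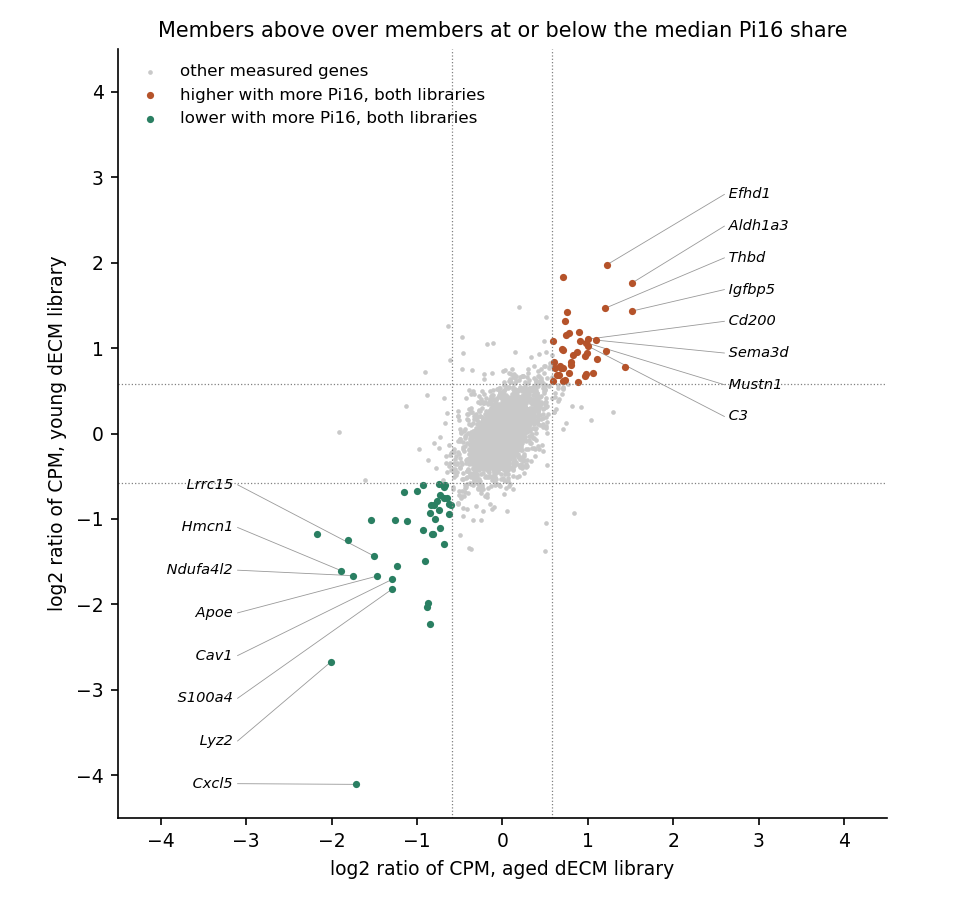
Each point is 1 gene, placed by the log2 ratio of its CPM in members above over members at or below the median Pi16 share, in the aged (x axis) and the young (y axis) library, with dotted lines at 1.5-fold; Pi16 itself is left out. Aldh1a3 and Igfbp5 lie at the upper end and Lyz2 and Cxcl5 at the lower end, and most genes are within 1.5-fold.

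Between aged and young dECM the members were much alike. A gene entered this comparison with 50 CPM or more in either library and 50 or more UMIs over both. Of the 2985 such genes, 17 (0.57%) were at least 1.5-fold higher in aged dECM members and 15 (0.503%) lower, 1.07% in all. The median log2 ratio of aged over young was -0.03, and 87.5% of genes were within 1.2-fold. For comparison, 184 of 3057 genes (6.02%) were 1.5-fold apart between the Cpxm1-side fibroblasts of the same libraries, 76 higher (2.49%) and 108 lower (3.53%), with fewer young cells behind them. The interval of the ratio lay wholly past 1.5-fold for 14 of the 32 genes, and 6 of the 32 had over 20% of their UMIs in 1 cell. None of the 25 measured universal list genes was apart, and Mfap5 had a log2 ratio of 0.05. The list includes Pi16 (-0.02), Dpt (0.12) and Clec3b (-0.23), which chose the members, so their ratios are description only.

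Contractile genes and Tnc were at the lower end. Tagln had 62.03 CPM in aged and 141 CPM in young dECM members, a log2 ratio of -1.18 (-1.37 to -0.99). Acta2 had 89.0 and 182 CPM (-1.03, -1.20 to -0.87) and Tnc 50.3 and 102 CPM (-1.02, -1.24 to -0.80). In neutrophil-gated barcodes Tagln had 24.6 CPM in the aged and 49.98 CPM in the young library and Acta2 48.9 and 71.3 CPM, the same direction. The part of free RNA in these differences was not tested. Tagln, Acta2 and Tnc were the only 3 apart of 15 measured genes of the myofibroblast list. In Cpxm1-side fibroblasts the same genes ran the same way, at log2 ratios of -1.33, -1.24 and -1.08. In Spp1-high fibroblasts Tagln (1469 CPM aged and 1044 CPM young) and Acta2 (1277 and 898.7 CPM) ran the other way. Tnc was lower in the aged library there too, at 2075 and 2573 CPM. Single cells weighed on these 3 genes in members: the top cell held 17.3% of Tagln, 16.8% of Acta2 and 19.6% of Tnc UMIs. Without each gene's top cell Tnc was at -0.58, just within 1.5-fold, while Tagln was at -1.61 and Acta2 at -1.20. With at least 98% of gene UMIs required to be mouse, Acta2 was at -0.50 and Tagln at -0.70.

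S100a4, a calcium-binding protein of motile fibroblasts and leukocytes, was lower on aged dECM. It had 269 CPM in aged and 425 CPM in young dECM members, against 114 and 102 CPM in neutrophil-gated barcodes. Cav1 had 42.1 and 76.6 CPM, Penk, which encodes the opioid precursor proenkephalin, 51.6 and 89.9 CPM, and Barx2, a homeobox factor, 29.3 and 51.4 CPM. Hilpda, a lipid droplet protein induced in hypoxia, had 57.8 and 95.6 CPM, the antimicrobial-like gene Wfdc17 92.1 and 151 CPM, and the tubulin gene Tuba1b 107.5 and 162 CPM. In Cpxm1-side fibroblasts Penk had a log2 ratio of 0.07, so it was not lower there. Barx2 stood at 22.19 and 12.6 CPM in them, below the minimum of 50 CPM, so its log2 ratio of 0.82 was not counted.

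At the upper end, Apoe, the lipid carrier apolipoprotein E, had 255.5 CPM in aged and 124.5 CPM in young dECM members, a log2 ratio of 1.04 (0.89 to 1.19). H19, an imprinted long non-coding RNA, had 51.4 and 24.9 CPM (1.05, 0.71 to 1.40), and Tgfbi, a TGF-beta-induced matrix protein gene, 55.2 and 27.35 CPM (1.01, 0.69 to 1.35). These 3 leaned on a few cells with another hashing tag, described below, and without them their log2 ratios were 0.45, 0.69 and 0.61; H19 and Tgfbi then also missed the minimum level. Igfbp3 (83.85 and 52.0 CPM) and Ctla2a (271 and 170 CPM), which encodes a cathepsin inhibitor, went to 0.44 and 0.47 in the same way. In the young library 37.8% of Apoe UMIs were in 1 cell, and without the top cell of each library Apoe was at 1.395. In Cpxm1-side fibroblasts its log2 ratio was 1.42. Spp1-high fibroblasts ran the other way, with 129.8 CPM in the aged and 408 CPM in the young library. Neutrophil-gated barcodes had 808 and 787 CPM of Apoe, more than members.

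Several higher genes were spread over many cells. Tmem176a, a membrane channel protein gene, had 77.15 CPM in aged and 42.0 CPM in young dECM members. Bckdhb, a subunit of the branched-chain keto acid dehydrogenase, had 76.8 and 45.2 CPM. Bach1, a repressor of haem oxygenase, had 78.7 and 48.5 CPM, Dhrs3, a retinal reductase, 62.2 and 38.45 CPM, Akap12, a kinase scaffold, 91.2 and 58.5 CPM, and Fgl2, a fibrinogen-like protein gene, 215 and 139 CPM. No cell held more than 5% of the UMIs of any of these 6 genes. Fgl2 was also higher on aged dECM in Cpxm1-side fibroblasts, at a log2 ratio of 1.09. The others were within 1.5-fold there: Bckdhb at 0.49, Dhrs3 at 0.44, Tmem176a at 0.10, Bach1 at -0.06 and Akap12 at -0.12. Over 14 alternatives Akap12 was still apart in members in 10.

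Cd3e, the epsilon chain of the T cell receptor complex, had the highest ratio of the measured genes with at most 20% of their UMIs in 1 cell. It had 65.8 CPM in aged and 29.5 CPM in young dECM members, a log2 ratio of 1.16 (0.85 to 1.47). Its 422 UMIs in the aged library were in 73 members and its 109 UMIs in the young library in 24. The other T cell genes looked at were nearly absent from members: Cd3d had 2 and 9 UMIs, Cd3g 3 and 9, Trbc2 12 and 0, and Lck 4 and 0. Cd3e was also in Cpxm1-side fibroblasts, at 70.8 and 23.4 CPM, and in Spp1-high fibroblasts, at 29.8 and 10.7 CPM, but at 0.918 and 0.905 CPM in neutrophil-gated barcodes.

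Of the 32 genes apart in members, 30 were measured in Cpxm1-side fibroblasts. There 6 of them were also at least 1.5-fold higher and 7 at least 1.5-fold lower on aged dECM, and 1 was apart in the opposite direction. Both populations came from the same 2 libraries, so these are not independent observations.

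**Figure D5:**
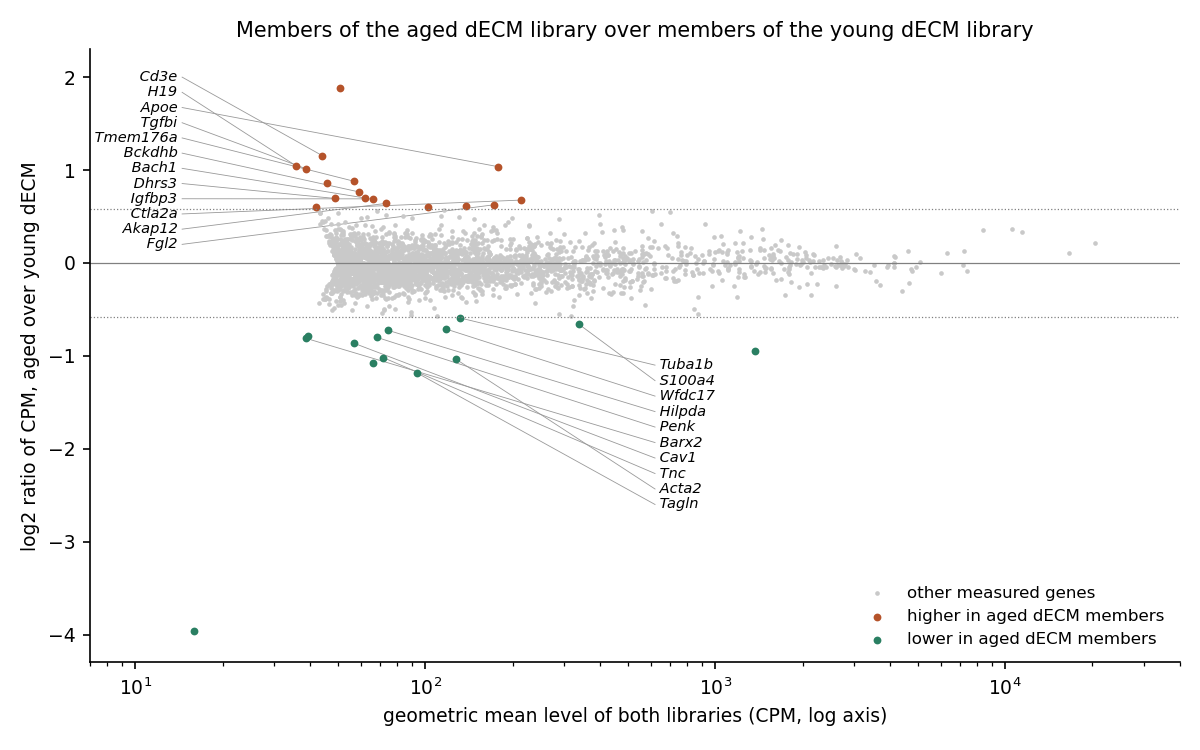
Each point is 1 measured gene, placed by the geometric mean of its CPM in both libraries (log axis) and the log2 ratio of aged over young dECM members, with dotted lines at 1.5-fold; 1 lower gene is not drawn, and coloured points without a name had over 20% of their UMIs in 1 cell or lay beyond the named genes. Most of the 2985 genes lie between the lines, with Cd3e, H19, Apoe and Tgfbi above and Tagln, Acta2 and Tnc below.

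With 1.07% of all measured genes apart between the matrices, lists of this length would hold few or none. None of 18 elastic fibre, 21 proteoglycan, 17 collagen processing, 24 protease, 11 complement, 23 immediate early, 14 interferon, 17 antioxidant or 22 oxidative phosphorylation genes reached 1.5-fold. Nor did any of 10 Wnt, BMP and TGF-beta genes or 17 transcription factor genes. None of 16 collagen genes did so either, with a median log2 ratio of 0.10; the highest were the gating genes Col1a2 (11949 CPM in aged and 9297 CPM in young dECM members, 0.36) and Col1a1 (0.35), and the lowest Col12a1 (-0.20). The oxidative phosphorylation list had a median of -0.17, with Uqcrq lowest (235 and 290.5 CPM, -0.31). In the hypoxia and glycolysis list only Hilpda of 18 was apart, with a median of -0.15, and the glycolytic genes Pkm (283 and 373 CPM) and Ldha (327 and 426 CPM) lay towards the lower end. In the immediate early list, whose genes also respond to dissociation, Fosb had 846 and 580 CPM (0.55) and Fos 2769 and 2441 CPM (0.18). In the chemokine and cytokine list of 21, the interleukin-33 receptor gene Il1rl1 was higher, and Saa3 (986 and 1897 CPM) and Lcn2 were lower with over 20% of their UMIs in 1 cell. In the lipid handling list Apoe and Fabp4 were higher of 12, and they and Penk were the genes apart of 12 in the adipogenic list, with 46.7% of Fabp4 UMIs in 1 cell. Igfbp3 was the only one apart of 15 growth factor and receptor genes. In the senescence list Igfbp3 was the only one apart of 12, and Cdkn1a, which encodes the inhibitor p21, had 175 and 141 CPM (0.32).

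Hashing antibodies, which mark cells by their sample of origin, gave nearly all members of a library the same highest tag. Which animal or lesion a tag stands for is not given in the sources used here. The highest tag was H-HTO-2 in 318 of 330 aged and H-HTO-4 in 202 of 203 young members. Many members carried more than 1 tag: 230 of the 330 aged and 178 of the 203 young members passed as single-tagged. H-HTO-4, the main tag of young members, had a median of 33 counts in aged members. Over all aged members it had 43356 counts, against 71686 for H-HTO-2. The M-HTO tags had few counts in members, at most 18 over aged and 6 over young members, both for M-HTO-1. How far a tag gives the origin of a member was not tested. The 12 aged members with another highest tag had 2017 CPM of Pi16 and 2147 CPM of Dpt, against 2652 and 2117 CPM in the rest. They also held 90.25% of the C1qa, 82.2% of the Gpihbp1 and 67.3% of the Cldn5 UMIs of aged dECM members, which are macrophage and endothelial genes. Their part was smaller for the endothelial genes Plvap (25.6%), Pecam1 (19.5%), Cdh5 (19.3%) and Emcn (15.3%), and was 41.2% for the macrophage gene Csf1r. Outside these cells Pecam1 still had 11.3 CPM in the aged and 1.09 CPM in the young library. The 12 cells held 35.5% of the Apoe, 26.55% of the Tgfbi and 24.2% of the H19 UMIs. A Scrublet score of at least 0.25 was given to 3 of the 12. Without these 12 and the 1 such young member, 28 genes were 1.5-fold apart between the matrices, 11 higher and 17 lower, and 26 of them were among the 32. With single-tagged members alone, 38 genes were apart, 17 higher and 21 lower, and 21 of them were among the 32.

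Markers of other cell types, neutrophil genes aside, were low in members, and those of endothelium moved with the aged library. The 10 endothelial genes summed to 143 CPM in aged and 41.15 CPM in young dECM members, of which Eng gave 41.15 and 29.2 CPM, and Pecam1 had 13.6 and 1.08 CPM. The 10 macrophage genes summed to 358 and 268 CPM, most of it Lyz2 and Cd14, and C1qa had 36.8 and 8.66 CPM. The 10 neutrophil genes summed to 3254 and 3088 CPM in members and to 2184 and 3907 CPM in Cpxm1-side fibroblasts, led by S100a9 and S100a8. S100a9 alone had 1668 CPM in aged and 1645 CPM in young dECM members. The median member had 0.0355% and 0.0389% S100a8 and S100a9 UMIs, so the sums in members lean on part of the cells. Pericyte genes summed to 180 and 185 CPM, with Rgs5 at 0.623 and 0.542 CPM and Higd1b at 0 in both libraries. Schwann cell genes summed to 270 and 279 CPM, of which Pmp22 gave 235 and 249.6 CPM, and Sox10 was at 0. Mammary epithelial genes summed to 11.4 and 16.5 CPM with Krt5, Krt14 and Krt7 at 0, mesothelial genes to 11.7 and 19.5 CPM with Msln at 0, and adipocyte genes to 3.90 and 3.79 CPM with Adipoq, Plin1 and 4 others at 0. Lymphoid genes summed to 122 and 80.95 CPM, most of it Cd3e and Ptprc. For scale, 10 fibroblast genes summed to 58850 and 50260 CPM. The part of these cell types in the differences above was not tested.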

How the data were processed

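Per the submitters' processing notes, the authors used Cell Ranger 6.0.0 with the builds GRCh38 and mm10. The deposited matrices hold whole-number counts of UMIs per feature and barcode, not normalised, for 36601 human genes, 32285 mouse genes and 52 antibody features; an antibody matrix is part of the same file. Counts were summed per population and library and scaled to CPM of mouse gene UMIs (Python 3.11.15, numpy 2.4.6). Intervals are exact 95% binomial or Poisson (scipy 1.17.1). With 1 gene expression library per group no test was run. Fold thresholds were 1.5 between libraries and within members and 2 between populations, for genes with at least 50 CPM in the higher group and 50 UMIs over both. The counting was tested on simulated data.

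The members and all 30 gene lists (591 entries, 10 of the lists markers of cell types) were chosen with earlier results of these data known. Genes are named by rule: the genes of the cell rule and markers, the 12 highest and 12 lowest between populations and between libraries (between libraries with at most 20% of UMIs in 1 cell, which left 10 lower ones), 8 and 8 over the Pi16 median split, and for lists 2 at each end or the 4 most abundant. Other list genes, Cd3d, Cd3g, Trbc2, Lck and Gpihbp1 were named after their values were seen. Predicted genes, and 1 sex-linked gene, are counted but not named. A few genes within these counts are not reported here. No doublet caller was part of the rule; Scrublet (scanpy 1.11.5, expected rate 0.1) was an alternative, since its own threshold called 0 doublets. Alternatives were other limits on species, depth, mitochondrial and rule UMIs, tags, thinning, cell weights and scaling (edgeR 4.0.16 for TMM).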

Additional observations from a re-analysis of the deposited data

Results flagged for a closer look

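Lcn2, which encodes the iron-chelating defence protein lipocalin 2, ran in opposite directions in members and Cpxm1-side fibroblasts. Its log2 ratio of aged over young dECM was -1.07 in members (45.5 and 95.8 CPM) and 0.73 in Cpxm1-side fibroblasts (122 and 73.8 CPM), and in members 25.5% of its UMIs were in 1 cell. The difference between the populations was not tested.

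Antibody features beyond the human hashing tags had a few counts in members. The CD11b antibody had 6 counts over all aged dECM members, and the mouse tag M-HTO-1 had 18 counts over aged and 6 over young dECM members. The mouse tag M-HTO-5 had 4 counts over aged dECM members. A count of 0 allows up to 3. The median over members was 0 for each of these features, and 1 aged dECM member held 10 or more of the M-HTO-1 counts.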

How the results depend on the processing

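The share of members among collagen-gated barcodes ranged from 31.95% to 34.1% on aged and from 34.0% to 36.8% on young dECM over 8 alternatives, within the counting interval each time. Asking for at least 200 CPM reduced the genes apart between aged and young dECM members to 6 of 754 (3 higher, 3 lower), those between members and Cpxm1-side fibroblasts to 87 of 761 (55 higher, 32 lower), and those between Pi16-positive and Pi16-negative members to 101 of 757, since fewer genes were measured. The Pi16 median split gave 83 against 485 genes, with at least 101 members on each side. Over the other alternatives the counts ran from 25 to 39, from 215 to 232 and from 422 to 489. Leaving out each gene's top cell gave 25 genes between the matrices, 22 of them among the 32, and weighting cells equally gave 27, of which 17 were among them. No named gene that was apart between the matrices changed direction; Pi16, near 0 at -0.02, ranged from -0.05 to 0.03. Over 14 alternatives Tuba1b was still apart in 6, Tgfbi in 7 and H19 in 9, and Acta2 ranged from -1.71 to -0.50 and Tagln from -1.90 to -0.70 in log2 ratio. TMM and median-of-ratios scaling moved log2 ratios by at most 0.06. No paired analysis was possible because each group had 1 gene expression library. With 1 library, animals, dissection and matrix age cannot be told apart.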

Other observations

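In members Pi16 and Dpt stood at 2628 and 2119 CPM in the aged and 2667 and 1953 CPM in the young library. In neutrophil-gated barcodes, which hold at least 3% S100a8 and S100a9 UMIs, Pi16 had 132 CPM in the aged and 96.8 CPM in the young library, while Dpt had 35.9 and 26.0 CPM and Clec3b 8.87 and 8.15 CPM. Members were chosen on these genes, so their levels are description only. After thinning to 3000 UMIs, 92.7% and 93.6% of members had a Pi16 UMI, against 17.9% (16.4 to 19.4) and 14.7% of neutrophil-gated barcodes, and before thinning 98.8% and 99.0% against 25.4% and 22.7%. In Spp1-high fibroblasts Pi16 was at 22.0 and 44.3 CPM, below its level in neutrophil-gated barcodes.

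Cfd, the gene of the adipokine adipsin, was at 0 UMIs in members of both libraries. Over all barcodes it had 151 UMIs in the aged and 0 in the young library.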
